A study of Mus musculus with 2 samples.

Results

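*Gsx1*, *Gsx2*, *Olig1* and *Olig2* encode transcription factors of subpallial progenitors, and their 4 rows were read from the counts of 2 single cell libraries of the embryonic mouse telencephalon. The members were taken by gene symbol, each library was treated on its own, and a cell with at least 1 unique transcript molecule (UMI) of a gene was taken as holding it. In the septal explants, 1813 of 5384 kept cells held at least 1 of the 4 genes, with *Gsx1* in 131 cells, *Gsx2* in 683, *Olig1* in 719 and *Olig2* in 1129. In the telencephalic vesicle, 3489 of 11707 kept cells held at least 1 of them, with *Gsx1* in 305 cells, *Gsx2* in 1547, *Olig1* in 412 and *Olig2* in 2473.

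The study examined how Dbx1 and Pcdh8 act in the cortical anlage, and both libraries served to place these genes among progenitors and neurons. The septal explants pooled 8 *PGKCre;Rosa26YFP* embryos at E11.5, in which a broadly active Cre switches on YFP, and 4 *Dbx1Cre;Rosa26tdTomato* embryos at E12.5, in which tdTomato traces Dbx1-derived cells, with 2 litters of each kind. The telencephalic vesicles came from 3 wild-type (WT) embryos of 2 litters, aged E12 in the labels and E11.5 to E12 in the methods of the study. The genotype label of both libraries reads wild-type, on a C57BL/6J background. Embryos cannot be told apart within a library, each tissue has 1 library, and neither a test of significance nor a standard error was possible. Differences are set against counting intervals only, and the intervals say nothing of how embryos vary. The libraries differ in tissue, stage, kit and software, so that levels were not compared between them.

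*Gsx1* and *Gsx2* (genomic screened homeobox factors) are homeodomain proteins of the ganglionic eminences. *Gsx2* is best known for setting the dorsal limit of the lateral ganglionic eminence at the pallial-subpallial boundary (PSB) and for inducing *Dlx* genes, and *Gsx1* for its part in the later step at which progenitors leave the apical state. *Olig1* and *Olig2* are basic helix-loop-helix proteins, first of ventral progenitors under Hedgehog signalling and later of the oligodendrocyte lineage. *Nkx2-1* marks the medial ganglionic eminence and preoptic area, and *Dlx1* and *Dlx2* drive GABAergic differentiation.

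*Gsx1* (ENSMUSG00000053129) lies on the plus strand of chromosome 5 of mm10 at chr5:147188696-147190947, with 1 annotated transcript. *Gsx2* (ENSMUSG00000035946) lies on the plus strand of the same chromosome at chr5:75075601-75077893, with 2 transcripts, 74.4 kb before *Pdgfra*. Its nearest coding gene is *Chic2*, 30.8 kb away. *Olig2* (ENSMUSG00000039830) at chr16:91225457-91228677 and *Olig1* (ENSMUSG00000046160) at chr16:91269772-91271933 lie on the plus strand of chromosome 16, 41.1 kb apart and each the other's nearest coding gene. The span of *Olig1* overlaps 1 gene on the other strand, Gm15966, and reads there could be told apart only by a strand-aware count, which is the usual setting of the counting software and is not stated for these files.

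Sequence just before the annotated starts is shown so that the promoters of *Gsx1* and *Gsx2*, related genes with different courses, can be set side by side with that of *Olig2*. The windows come from the RefSeq promoter table of GRCm38.p6, which matched 3 of the 4 genes, and are printed 5′ to 3′ on the plus strand, cut so that they end at the base before the gene start given above. Capitals mark matches to an E-box (CANNTG, the motif of basic helix-loop-helix factors, read on both strands) and to a TATA box (TATAAA, both strands).
Gsx1, chr5:147188446-147188695: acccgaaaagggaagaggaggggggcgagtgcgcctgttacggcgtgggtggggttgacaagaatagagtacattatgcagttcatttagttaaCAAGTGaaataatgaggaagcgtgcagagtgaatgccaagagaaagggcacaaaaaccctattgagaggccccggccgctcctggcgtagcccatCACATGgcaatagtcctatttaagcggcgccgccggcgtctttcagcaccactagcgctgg
Gsx2, chr5:75075351-75075600: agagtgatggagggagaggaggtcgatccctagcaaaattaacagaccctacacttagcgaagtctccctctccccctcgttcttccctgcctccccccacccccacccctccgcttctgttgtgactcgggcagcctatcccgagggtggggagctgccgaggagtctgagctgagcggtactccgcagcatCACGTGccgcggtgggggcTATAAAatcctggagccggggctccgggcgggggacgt
Olig2, chr16:91225300-91225456: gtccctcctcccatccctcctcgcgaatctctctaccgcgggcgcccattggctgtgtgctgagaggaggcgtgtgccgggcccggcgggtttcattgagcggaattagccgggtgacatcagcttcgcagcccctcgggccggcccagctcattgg
The *Gsx1* window of 250 bases held 2 E-box matches, CAAGTG and CACATG, and 66.2% of 32851 promoter windows of that length held at least 1. The *Gsx2* window held 1 E-box match, CACGTG, and a TATA box match, TATAAA, that is followed by the last 32 bases of the window, and 12.4% of windows of that length held a TATA box match. The *Olig2* window of 157 bases held neither, against 50.8% and 7.55% of windows cut to their first 157 bases. Windows cut in this way, here and below, leave out the bases nearest the starts of the promoter table. The *Olig2* window ends at its annotated start, so that position was not matched. The homeodomain core TAATTA (both strands, the same letters on either) was found in none of the 3, and 4.84% of windows of 250 bases and 3.39% of windows of 157 bases held it. G and C made up 54%, 63.6% and 66.9% of the windows (against a median of 52.4% over promoter windows of 250 bases and 51.0% of 157 bases), and a match is only a match of letters.

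Cells were grouped without use of the 4 genes. Each library gave 30 clusters, which were named by likeness to marker lists, and the classes of both were apical progenitors (APs) with subpallial-like, septal-like, pallial-like or hem-like genes, APs without a regional likeness, pallial-like basal progenitors (BPs), subpallial-like differentiating cells, GABAergic-like, glutamatergic-like and Cajal-Retzius-like neurons, and blood, vessel or mesenchyme types. Only the telencephalic vesicle gave ventral pallial (VP)-like APs. Levels are in CPM, which scales the UMIs of a gene by all UMIs of the summed cells, with exact Poisson 95% intervals in brackets, and they are compared only within a gene. Kept cells had a median depth of 12868 UMIs (septal) and 9032 UMIs (vesicle), and 1 barcode sequence occurs in both libraries. Septal genes were found in the septal explants (*Fgf8* up to 1529 CPM and *Fgf17* up to 2230 CPM in a septal-like cluster), but the explants also held 1295 pallial-like APs and 643 subpallial-like APs, and *Zic1*, a gene of the septum and other medial tissue, reached 318 to 616 CPM in the 3 subpallial-like clusters. The subpallial-like naming of septal clusters was not stable, with 399 to 1313 cells over the settings tried.

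**Figure D1:**
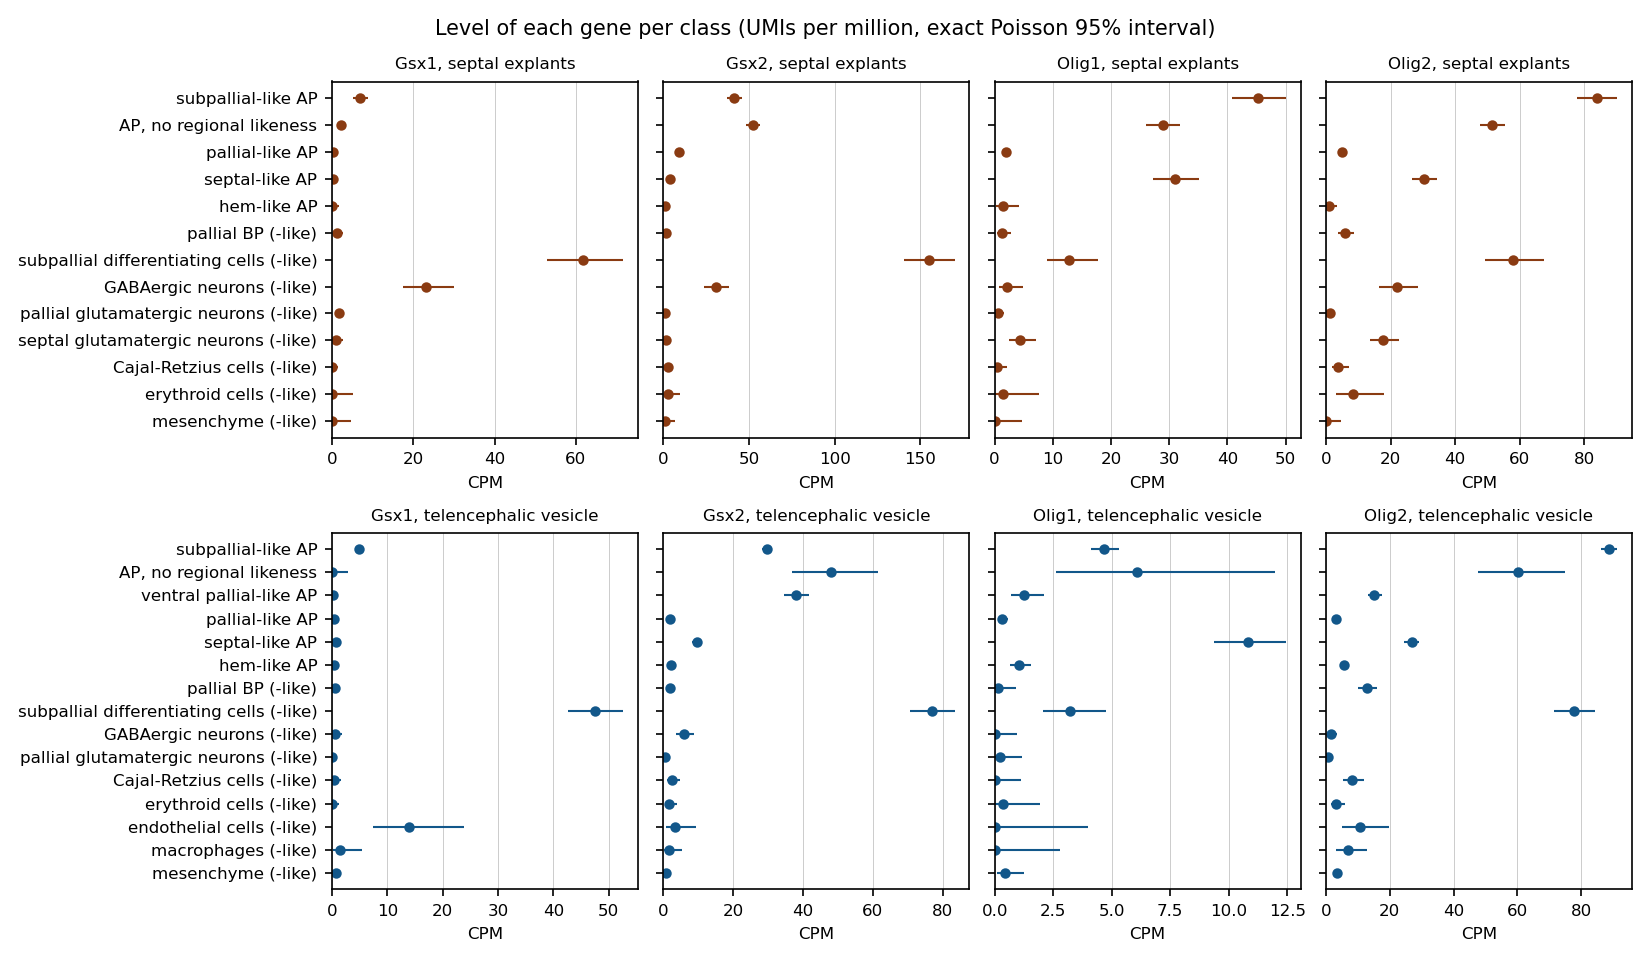
Level of each gene (CPM, x axis, a linear scale that differs between panels) in every class of the septal explants (top) and the telencephalic vesicle (bottom). Points are the level over all cells of a class and bars its exact Poisson 95% interval. *Gsx1* and *Gsx2* are highest in the subpallial-like differentiating cells of both libraries, at 61.8 and 155 CPM in the septal explants, whereas *Olig2* is highest in subpallial-like APs, at 83.9 and 88.7 CPM.

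*Gsx1* was mostly a gene of differentiating cells. It reached, in the septal explants, 61.8 CPM [53.0 to 71.7] in subpallial-like differentiating cells, 23.1 [17.5 to 30.1] in GABAergic-like neurons, 6.81 [5.16 to 8.82] in subpallial-like APs and 2.31 [1.57 to 3.27] in APs without a regional likeness. The next class was pallial glutamatergic-like neurons, at 1.63 [0.780 to 2.99], which overlaps the last of these. Of their 10 *Gsx1* UMIs, 9 lay in 1 cell. Septal-like and pallial-like APs were at 0.126 [0.00318 to 0.700] and 0.269 [0.0987 to 0.585]. The level of subpallial-like APs ranged from 3.38 to 6.81 CPM over the settings tried. Subpallial-like differentiating cells made up 4.79% of the septal cells but held 50.6% of all *Gsx1* UMIs. The vesicle had 47.5 CPM [42.7 to 52.7] of *Gsx1* in subpallial-like differentiating cells and 4.91 [4.31 to 5.57] in subpallial-like APs, and it stayed at or under 0.705 CPM in VP-like, pallial-like, septal-like and hem-like APs and in neurons. The differentiating cells there, 7.12% of all cells, held 53.4% of the *Gsx1* UMIs. Of the 15 *Gsx1* UMIs in blood and vessel-like cells of that library, 12 lay in 1 endothelial-like cell.

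*Gsx2* was present in APs and rose further in differentiating cells. Its septal level was 155 CPM [141 to 170.1] in subpallial-like differentiating cells, followed by APs without a regional likeness at 52.3 [48.5 to 56.3], subpallial-like APs at 41.5 [37.2 to 46.1] and GABAergic-like neurons at 30.6 [24.0 to 38.4], where the last pair overlaps. Pallial-like APs followed at 8.92 [7.72 to 10.3] and septal-like APs at 3.64 [2.44 to 5.23]. The level of subpallial-like APs was 38.1 to 66.0 CPM over the settings tried. For the telencephalic vesicle the order was subpallial-like differentiating cells at 76.9 CPM [70.7 to 83.4], APs without a regional likeness at 47.9 [36.8 to 61.3], VP-like APs at 37.9 [34.5 to 41.6], subpallial-like APs at 29.7 [28.2 to 31.2] and septal-like APs at 9.65 [8.28 to 11.2], where APs without a regional likeness and VP-like APs overlap. VP-like APs thus held *Gsx2* at 1.28 times [1.15 to 1.42] the level of all subpallial-like APs, of which 4 of 5 clusters were nearest to the medial ganglionic eminence list. The level of subpallial-like APs there was 29.7 to 34.05 CPM over the settings tried, and the value used here is the lowest. The pooled VP-like APs were below the 1 cluster nearest to the lateral ganglionic eminence list, at 47.6 CPM [43.4 to 52.1]. VP borders that eminence across the PSB. The difference did not hold for each VP-like cluster. The VP-like cluster of 379 cells had *Gsx2* at 46.4 CPM, within that interval. The one of 326 cells had 32.8 CPM, a 1.42-fold difference [1.17 to 1.71] between them. The pooled level of VP-like APs was 21.5 times [16.1 to 29.2] that of pallial-like APs.

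*Olig2* was foremost a progenitor gene. Its septal level was 83.9 CPM [77.8 to 90.3] in subpallial-like APs, 57.9 [49.3 to 67.5] in subpallial-like differentiating cells and 51.6 [47.8 to 55.5] in APs without a regional likeness, the last pair with overlapping intervals, and at 30.4 [26.7 to 34.5] in septal-like APs. GABAergic-like neurons followed at 21.9 [16.4 to 28.7] and septal glutamatergic-like neurons at 17.7 [13.7 to 22.6], which overlap each other and, for the GABAergic-like neurons, the septal-like APs too. The levels of the telencephalic vesicle were 88.7 CPM [86.1 to 91.3] in subpallial-like APs, 77.7 [71.5 to 84.3] in subpallial-like differentiating cells, 60.1 [47.6 to 74.9] in APs without a regional likeness, 26.8 [24.5 to 29.3] in septal-like APs, 15.2 [13.1 to 17.6] in VP-like APs and 12.8 [10.1 to 15.95] in pallial-like BPs. Of these, subpallial-like differentiating cells overlap APs without a regional likeness, and VP-like APs overlap pallial-like BPs. Subpallial-like APs were 24.97% of the cells of that library and held 71.3% of its *Olig2* UMIs.

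*Olig1* was found mainly in progenitors of both libraries, and septal-like APs ranked high for it. Septal cells had it at 45.3 CPM [40.8 to 50.1] in subpallial-like APs, 31.0 [27.3 to 35.1] in septal-like APs, 28.9 [26.1 to 31.9] in APs without a regional likeness, the last pair overlapping, and 12.8 [8.96 to 17.7] in subpallial-like differentiating cells. Its highest level in the telencephalic vesicle was in septal-like APs, at 10.8 CPM [9.39 to 12.45], followed by APs without a regional likeness at 6.09 [2.63 to 11.99], subpallial-like APs at 4.69 [4.10 to 5.33] and subpallial-like differentiating cells at 3.21 [2.06 to 4.78], each of which overlaps the next. GABAergic-like neurons there held no *Olig1* UMI (0 of 505 cells, where 3 counts would be 0.594%).

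Subpallial-like APs were set against pallial-like APs as the plainest contrast across the PSB. APs without a regional likeness were on neither side of it. In the septal explants they held 39.5% of the cells with *Gsx2*, against 18.6% in subpallial-like APs. Their septal clusters of 155, 220 and 303 cells had cell cycle genes among the leading genes, such as *Plk1*, *Ccnb1* and *Ccne2*. The septal explants gave folds of 25.3 [10.95 to 71.9] for *Gsx1*, 4.65 [3.89 to 5.56] for *Gsx2*, 24.1 [17.5 to 33.9] for *Olig1* and 16.6 [13.6 to 20.4] for *Olig2*. The telencephalic vesicle gave 13.2 [7.22 to 26.7], 16.8 [12.8 to 22.6], 15.3 [7.94 to 34.0] and 26.9 [22.03 to 33.3] in the same order. For none of the genes did the pallial-like level there lie above that of blood and vessel-like cells beyond counting error. The sizes of the vesicle folds thus rest on a level near background. Each gene was thus higher in subpallial-like than in pallial-like APs of both libraries, beyond counting error. VP-like APs were not part of this contrast, and their *Gsx2*, at 37.9 CPM, lay above the 29.7 CPM of subpallial-like APs. The size was not fixed: in the septal explants the *Gsx2* fold was 2.56 with classes taken from marker UMIs in each cell, 6.05 at a Leiden resolution of 2.5, 10.3 with another random seed and 18.6 with doublets kept, and under marker UMIs every septal fold lay between 2.56 and 4.83.

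The low septal *Gsx2* fold came with pallial-like clusters of 150 and 365 cells, which held 95 and 86 of the 199 *Gsx2* UMIs of pallial-like APs. The cluster of 150 cells, led by *Col25a1* and *Neurog2*, had *Gsx2* at 50.4 CPM [40.8 to 61.6]. That of 365 cells, led by *Lrrn1*, had 12.4 [9.91 to 15.3], and the other 4 pallial-like clusters had 0.836 to 2.33 CPM. The cluster of 150 cells had *Olig2* at 14.9 CPM [9.87 to 21.5], *Dlx2* at 53.1, *Neurog2* at 162 and *Pax6* at 285. It thus held pallial and subpallial genes side by side, and whether single cells did so was not tested.

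A floor under such values was read from another lineage. Blood and vessel-like cells of the telencephalic vesicle, which should lack all 4 genes, held *Gsx1* in 0.604% of 497 cells, *Gsx2* in 1.61%, *Olig1* in 0.201% and *Olig2* in 4.23%, at a median of 6089 UMIs. Their *Gsx2* and *Olig2* levels, 1.95 CPM [0.933 to 3.58] and 5.45 CPM [3.62 to 7.88], were not below those of pallial-like APs, at 1.76 [1.32 to 2.31] and 3.29 [2.67 to 4.02], which were therefore read as background. Of the 8 reference cells with *Gsx2*, 3 also held *Olig2*, where 0.338 were expected from the shares, at a median of 38564 UMIs. Whether the UMIs of the reference cells came from free RNA or from doublets was not tested. With every cell thinned to 3500 UMIs, *Gsx2* was held by 8.05% [7.08 to 9.10] of subpallial-like APs, 13.1% [10.7 to 15.8] of VP-like APs, 0.195% [0.0236 to 0.701] of pallial-like APs and 0.224% [0.00568 to 1.24] of blood and vessel-like cells (28, 9, 30 and 51 shallower cells left out), with 25.2%, 32.9%, 3.78% and 1.61% before thinning. For *Olig2* the thinned shares were 26.04% [24.5 to 27.7], 6.32% [4.63 to 8.39], 0.778% [0.337 to 1.53] and 2.02% [0.927 to 3.80]. The septal explants held only 26 such reference cells, at a median of 29046 UMIs, with *Olig2* in 3 of them, *Gsx2* in 2, *Olig1* in 1 and *Gsx1* in 0, and these are too few to set a floor. Thinned to 8000 UMIs, septal subpallial-like APs held *Gsx1* in 3.02%, *Gsx2* in 17.6%, *Olig1* in 25.96% and *Olig2* in 41.2% of 597 cells.

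Within the subpallial-like APs the 4 genes did not follow the same order of clusters. Among those of the telencephalic vesicle, the cluster richest in *Nkx2-1* (319.5 CPM, with *Shh* at 92.6) had *Olig2* at 189.8 CPM [183 to 197], *Gsx2* at 24.98 [22.6 to 27.5], *Olig1* at 7.66 [6.37 to 9.14] and *Gsx1* at 7.54 [6.25 to 9.01]. The cluster poorest in *Nkx2-1* (8.92 CPM, with *Pax6* at 164 and *Meis2* at 1209) had *Olig2* at 12.9 [10.8 to 15.4], *Gsx2* at 47.6 [43.4 to 52.1], *Olig1* at 2.91 [1.95 to 4.18] and *Gsx1* at 0.301 [0.0620 to 0.879]. Between these clusters *Olig2* differed 14.7-fold [12.3 to 17.7] and *Gsx1* 25.1-fold [8.37 to 123] towards the *Nkx2-1* side, and *Gsx2* 1.91-fold in the other direction. *Nkx2-1* and *Pax6* were among the genes used to name clusters.

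The septal explants showed the same opposition of *Gsx2* and *Olig2*. A subpallial-like cluster of 84 cells with *Nkx2-1* at 835 CPM had *Gsx2* at 3.05 CPM, *Olig1* at 72.4 [58.6 to 88.5] and *Olig2* at 158 [137 to 181]. The one with *Nkx2-1* at 34.2 CPM had *Gsx2* at 89.5 [79.8 to 100.1], *Olig1* at 45.1 [38.2 to 52.8] and *Olig2* at 61.7 [53.7 to 70.7]. *Gsx2* was thus 29.4-fold lower in the *Nkx2-1*-rich cluster, from 4 UMIs in it, whereas *Olig2* was 2.56-fold [2.099 to 3.11] and *Olig1* 1.61-fold [1.23 to 2.09] higher. *Gsx1* was also lower in the *Nkx2-1*-rich cluster, opposite to the vesicle. It was at 3.05 CPM against 9.66, or 0.316 times [0.0813 to 0.888], from 4 UMIs. The remaining subpallial-like cluster, with *Nkx2-1* at 229.9 CPM and *Fgf17* at 753, had *Gsx2* at 10.2 CPM and *Olig2* at 78.0.

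**Figure D2:**
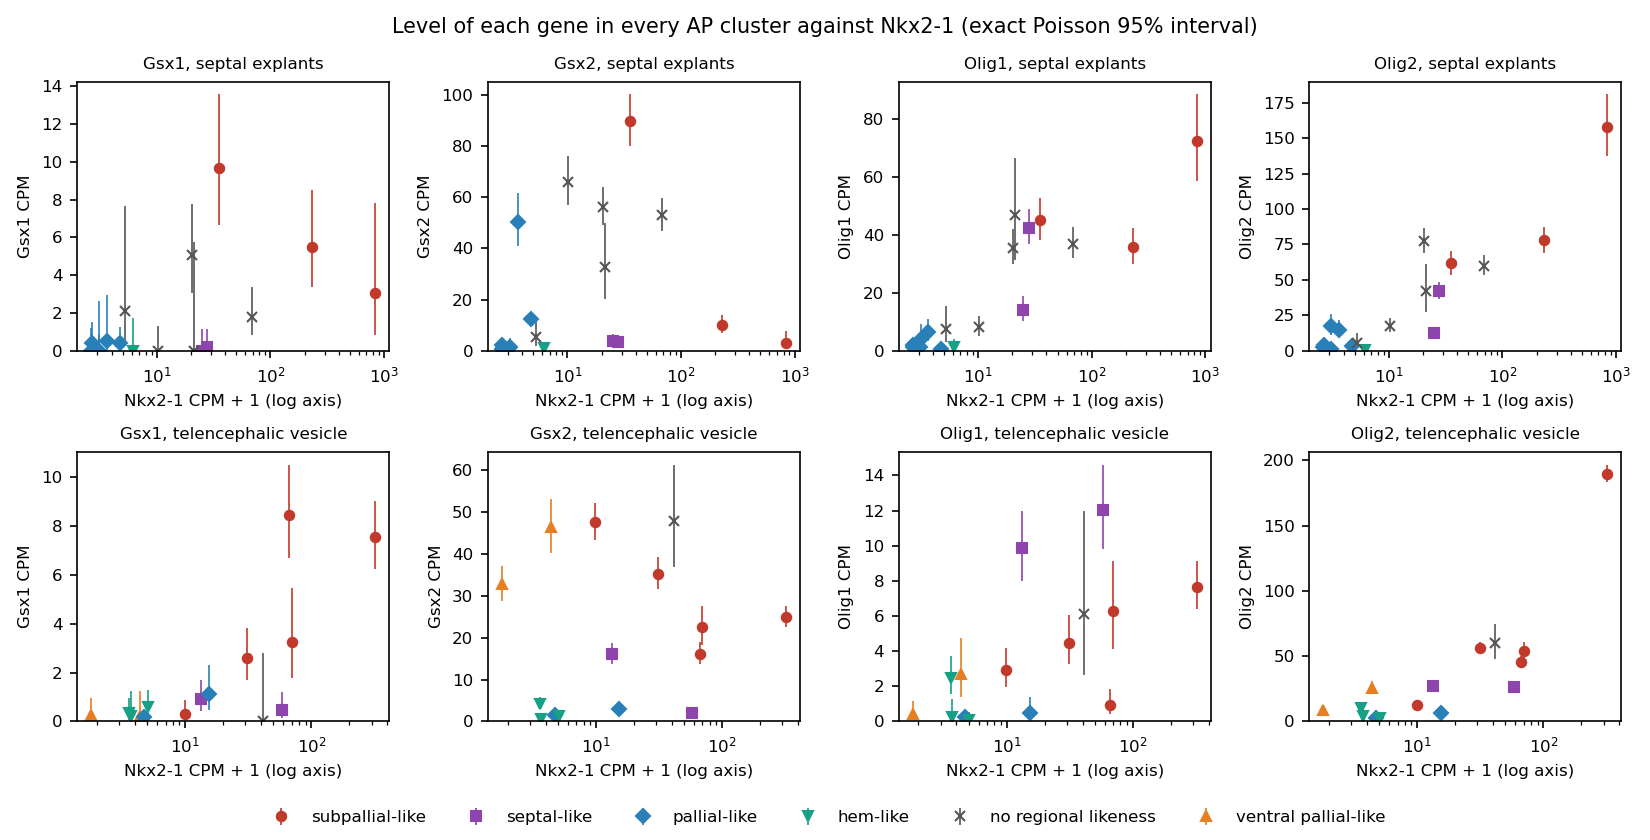
Level of each gene in every AP cluster (CPM, y axis) against *Nkx2-1* (CPM + 1, log x axis), in the septal explants (top) and the telencephalic vesicle (bottom). Each point is 1 cluster, shape and colour give its class, and bars are exact Poisson 95% intervals. The cluster with the most *Nkx2-1* has the most *Olig2* in both libraries, at 158 and 189.8 CPM, and *Gsx2* at 3.05 and 24.98 CPM.

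The ratio of UMIs of a pair of genes shows such shifts without reference to depth. Per 100 *Olig2* UMIs the telencephalic vesicle held 13.2 *Gsx2* UMIs [11.8 to 14.6] in the *Nkx2-1*-rich cluster, 368 [302.5 to 451] in the *Nkx2-1*-poor cluster and 249 [209 to 298] in VP-like APs. Per 100 *Olig2* UMIs it held 5.28 *Olig1* UMIs [4.61 to 6.03] in subpallial-like APs but 40.4 [34.1 to 47.7] in septal-like APs. The septal explants moved the same way, from 54.0 [47.5 to 61.3] in subpallial-like to 102 [85.1 to 122] in septal-like APs. The neighbouring genes *Olig1* and *Olig2* were thus found in unequal proportion in the classes of each library, more *Olig1* per *Olig2* in septal-like APs.

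*Fgf8* and *Fgf17*, ligands of the patterning centre of the rostral telencephalon, were among the leading genes of 3 of the 4 septal-like clusters. The other, of 383 cells in the vesicle, was led by *Kitl* and named from *Zic*, *Spry* and *Etv* genes. Against subpallial-like APs, their *Gsx2* was 11.4-fold lower (0.0878 times, interval 0.0580 to 0.128) in the septal explants and 3.08-fold lower (0.325 times, interval 0.277 to 0.380) in the telencephalic vesicle. *Gsx1* was at 0.0184 times [0.000459 to 0.107] from 1 UMI in the former and 6.965-fold [3.997 to 13.3] lower in the latter. *Olig2* was 2.76-fold [2.38 to 3.21] and 3.305-fold [3.01 to 3.63] lower. *Olig1* was 0.685 times [0.581 to 0.806] the level of subpallial-like APs in the septal explants and 2.31 times [1.91 to 2.81] in the telencephalic vesicle. The 2 septal-like clusters of the vesicle differed 7.93-fold [4.799 to 13.9] in *Gsx2*, at 16.03 CPM where *Fgf17* was 71.6 and at 2.02 CPM where *Fgf17* was 570.1, while their *Olig2* levels, 27.3 [24.2 to 30.7] and 26.3 [22.9 to 30.0], overlapped. Those of the septal explants had *Gsx2* at 3.598 and 3.704 CPM, and *Olig2* at 42.6 and 12.7 CPM, a 3.36-fold difference [2.39 to 4.83].

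The septal library mixes both stages, and YFP marks cells of the E11.5 embryos. Among septal subpallial-like APs, *Gsx2* was at 29.6 CPM [25.1 to 34.6] in the 383 cells with at least 3 YFP UMIs and at 62.4 [52.3 to 73.8] in the 177 cells with none. The 56 cells with at least 1 tdTomato UMI, a reporter that only the E12.5 embryos carry, had 76.3 CPM [58.2 to 98.2]. They were taken without regard to YFP, so that they can also belong to the other sets. The *Olig2* levels of the 3 sets, 79.5 [72.0 to 87.5], 87.1 [75.2 to 100.4] and 89.0 [69.4 to 112.5], overlapped, as did those of *Olig1*, at 44.3, 46.3 and 57.2 CPM. Other classes went otherwise. Among APs without a regional likeness, *Gsx2* was at 45.4 CPM [40.8 to 50.2] with YFP, 61.6 [54.0 to 69.9] without it and 22.98 [13.1 to 37.3] in the 34 cells with tdTomato, whereas *Olig2* was at 47.7 [43.1 to 52.7], 56.95 [49.7 to 64.95] and 86.2 [65.8 to 110.9]. Over all AP clusters *Olig2* was at 30.3 [28.5 to 32.2] with YFP and 48.3 [41.4 to 56.0] with tdTomato, and *Olig1* at 18.9 [17.5 to 20.5] and 29.02 [23.7 to 35.2]. The tdTomato cells thus had more *Gsx2* than the YFP cells among subpallial-like APs and less among APs without a regional likeness, and more *Olig2* in the latter. Stage, genotype and litter cannot be told apart here, nor can Dbx1 lineage, which tdTomato traces. A cell without YFP can belong to either kind of embryo.

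Along the subpallial lineage the members followed different courses. Cells of subpallial-like APs, subpallial-like differentiating cells and GABAergic-like neurons were ranked by log2((N + 1)/(A + 1)), where N sums 11 neuronal genes and A sums 9 genes of APs in UMIs, and split into 10 equally filled bins. Septal *Gsx1* (112 to 113 cells a bin) went from 2.66 CPM [0.725 to 6.81] in bin 1 to 78.1 [62.6 to 96.2] in bin 8 and 11.7 [6.57 to 19.4] in bin 10. *Gsx2* went from 25.3 [17.9 to 34.7] to 134.9 [115 to 158] in bin 7 and 7.04 [3.22 to 13.4] in bin 10, with 130.4 [110.2 to 153] in bin 8. *Gsx1* thus stayed low through the AP bins and had its highest level where neuronal genes set in. Its level in bin 7, 55.6 CPM [43.0 to 70.8], overlaps that in bin 8. The *Gsx2* bins 7 and 8 overlap as well, so that no order of the *Gsx1* and *Gsx2* peaks can be given.

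*Olig* genes went the other way. Septal *Olig1* was at 49.9 CPM [39.2 to 62.5] in bin 1, 34.4 [25.3 to 45.8] in bin 6, 12.6 [7.08 to 20.9] in bin 7 and 3.13 [0.852 to 8.01] in bin 10. *Olig2* went from 118 [101 to 136] in bin 1 to 63.9 [49.97 to 80.4] in bin 8, 18.1 [11.2 to 27.7] in bin 9 and 6.26 [2.70 to 12.3] in bin 10. *Olig1* was thus low from bin 7 on, and *Olig2* from bin 9 on. *Hes5*, a Notch target of APs, fell from 476 CPM in bin 1 to 59.9 in bin 7, and *Gad2*, a GABA-synthesising enzyme, was at 2.53 CPM in bin 7 and 67.4 in bin 8.

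In the telencephalic vesicle (426 to 427 cells a bin) both *Gsx* genes were also highest in a late bin and low in bin 10. *Gsx1* was at 0.819 CPM [0.223 to 2.098] in bin 1, 15.7 [12.6 to 19.4] in bin 7, 63.7 [56.2 to 71.9] in bin 8 and 1.24 [0.337 to 3.17] in bin 10. *Gsx2* stayed between 24.4 and 38.0 CPM in bins 1 to 7, reached 71.9 [64.0 to 80.6] in bin 8 and was 5.56 [3.30 to 8.79] in bin 10. *Olig2* stayed between 81.1 and 99.95 CPM in bins 1 to 8 and then was 15.7 [11.6 to 20.9] and 2.16 [0.870 to 4.46]. *Olig2* thus kept an AP-like level in the bin with the most *Gsx1* and *Gsx2* and was lower in bin 9, where *Gad2* was at 492.8 CPM. Its bin 9 level still lay above the 5.45 CPM [3.62 to 7.88] of blood and vessel-like cells, and its bin 10 level did not. *Olig1* was at 3.41 to 7.09 CPM in bins 1 to 7, with its highest level in bin 6 at 7.09 [5.34 to 9.23]. It was then 2.91 [1.501 to 5.08] in bin 8, 0.983 [0.203 to 2.87] in bin 9 and 0 [0 to 1.14] in bin 10. Each of these was below bin 6, but bin 8 overlapped bins 1 to 5 and 7, and bin 9 overlapped bin 4.

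**Figure D3:**
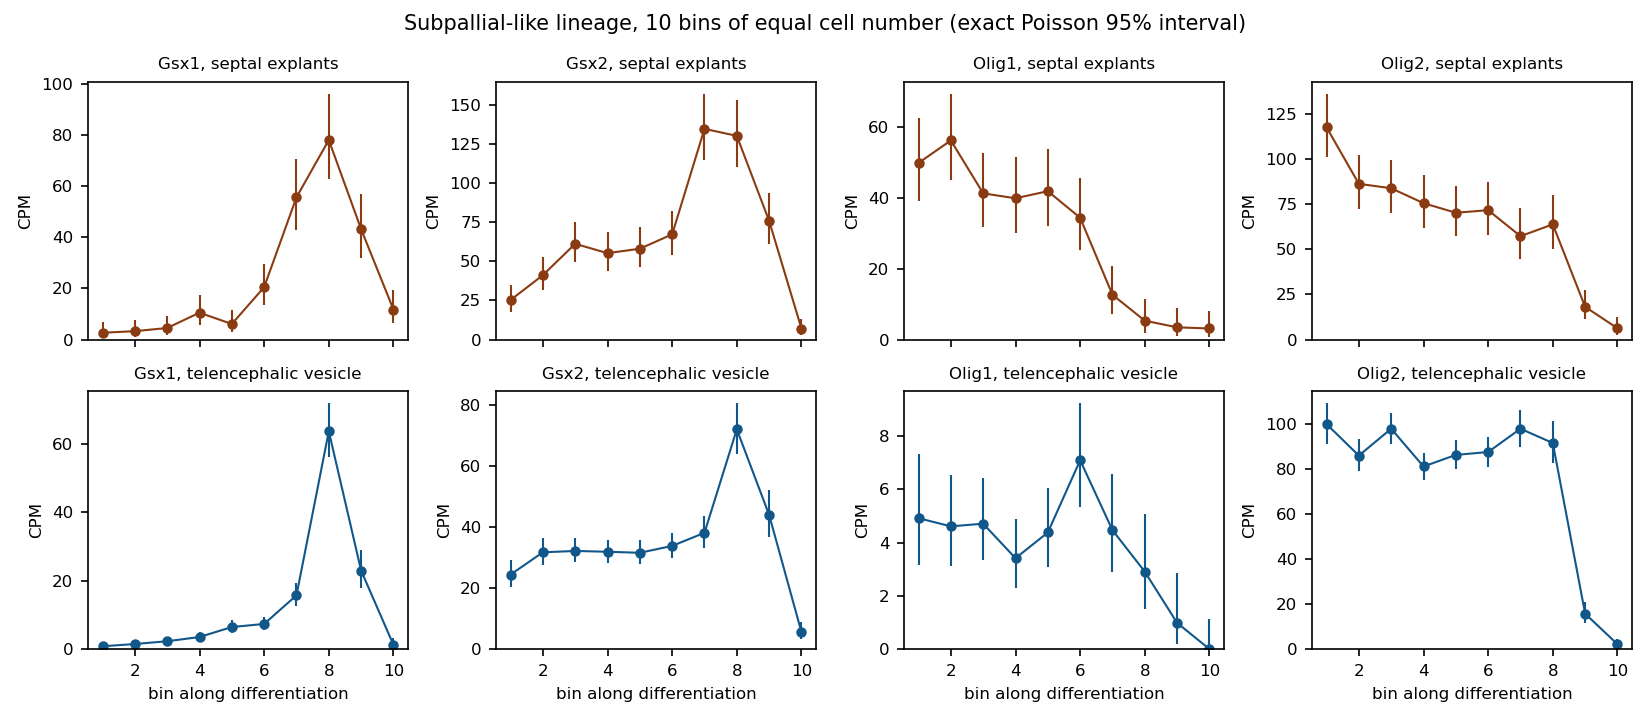
Level of each gene (CPM, y axis, linear) in 10 bins of equal cell number along differentiation (x axis, from AP-like to neuron-like) in the septal explants (top) and the telencephalic vesicle (bottom). Points are levels over all cells of a bin, bars exact Poisson 95% intervals. *Gsx1* is highest in bin 8 in both libraries, at 78.1 and 63.7 CPM, where the septal interval overlaps that of bin 7. *Olig2* is low in bins 9 and 10 of both.

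By class, subpallial-like differentiating cells held *Gsx1* at 9.08 times [6.69 to 12.47] the level of subpallial-like APs in the septal explants and 9.67 times [8.19 to 11.4] in the telencephalic vesicle. *Gsx2* was 3.74 times [3.24 to 4.31] and 2.59 times [2.35 to 2.86] as high, *Olig1* 0.282 times [0.195 to 0.398] and 0.685 times [0.430 to 1.05], and *Olig2* 0.690 times [0.579 to 0.820] and 0.876 times [0.802 to 0.956]. Both *Gsx* genes were thus higher and *Olig2* somewhat lower in differentiating cells of either library, and the *Olig1* difference in the telencephalic vesicle lay within counting error. *Gsx1* also gained on *Gsx2*, from 16.4 [12.2 to 21.8] to 39.9 [33.3 to 47.7] *Gsx1* UMIs per 100 *Gsx2* UMIs in the septal explants and from 16.5 [14.4 to 18.96] to 61.7 [53.9 to 70.6] in the telencephalic vesicle.

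The 2 clusters of septal differentiating cells split the *Gsx* genes. The cluster of 163 cells led by *Chodl* also had *Fgf8* and *Fgf17*, as in septal-like APs, among its leading genes. It had *Gsx1* at 103 CPM [87.6 to 121] and *Gsx2* at 110.2 [93.9 to 129]. Of the 174 *Gsx1* UMIs of septal differentiating cells, 152 lay in it. In the cluster of 95 cells led by *Top2a* and other genes of mitosis, *Gsx1* was at 16.4 CPM [10.3 to 24.8] and *Gsx2* at 204 [180.3 to 229]. The former thus had 6.32 times [4.03 to 10.4] the *Gsx1* and 0.541 times [0.443 to 0.659] the *Gsx2* of the cycling cluster, and also more *Isl1* (372 against 154 CPM) and *Nkx2-1* (137 against 33.5 CPM). The differentiating clusters of the telencephalic vesicle differed along *Nkx2-1*: at 468.5 CPM *Nkx2-1*, with *Lhx8* at 264 CPM, *Olig2* was at 124 CPM and *Gsx2* at 57.8, and at 65.4 CPM *Nkx2-1* they were at 43.6 and 90.9, a 2.85-fold difference [2.39 to 3.40] for *Olig2* and 0.636 times [0.530 to 0.759] for *Gsx2*.

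Neurons kept the members unequally. GABAergic-like neurons of the telencephalic vesicle had 2 *Gsx1* UMIs, 23 *Gsx2* UMIs, 6 *Olig2* UMIs and 0 *Olig1* UMIs in 505 cells, and *Gsx2* at 5.91 CPM [3.74 to 8.86] was 13.02-fold below the differentiating cells and *Olig2* at 1.54 CPM [0.566 to 3.35] 50.4-fold below. Of the *Gsx2* UMIs, 21 lay in the neurons with *Ebf1* and *Isl1* and 2 in those with *Lhx6* and *Lhx8*. Septal GABAergic-like neurons had *Gsx1* at 0.375 times [0.272 to 0.509], *Gsx2* at 0.198 times [0.152 to 0.253] and *Olig2* at 0.378 times [0.272 to 0.519] the level of differentiating cells. These neurons formed a single cluster of 223 cells.

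*Olig2* was also found outside the subpallial lineage. Among septal glutamatergic-like neurons, the cluster with *Neurog2* at 544 CPM had *Olig2* at 31.2 CPM [23.6 to 40.5] and the cluster with *Neurog2* at 26.1 CPM had 4.795 [2.19 to 9.10], a 6.51-fold difference [3.20 to 14.97]. *Gsx2* was at or under 1.67 CPM in both, from 3 and 2 UMIs. Pallial-like BPs of the telencephalic vesicle had *Olig2* at 12.8 CPM [10.1 to 15.95], 3.88 times [2.84 to 5.28] the level of pallial-like APs and above the blood and vessel-like cells. Septal pallial-like BPs did not show this, with *Olig2* at 5.92 CPM [3.83 to 8.74] against 5.06 [4.17 to 6.09] in pallial-like APs. *Gsx2* was at 1.80 CPM [0.899 to 3.22] in the BPs of the vesicle, not distinguishable from pallial-like APs.

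Co-detection asks whether the genes share cells. Over all AP clusters of the septal explants (3495 cells), *Gsx2* and *Olig2* were both found in 235 cells, which is 47.1% of the 499 cells with *Gsx2* and 25.1% of the 936 cells with *Olig2*. *Olig1* and *Olig2* shared 383 cells (57.4% of those with *Olig1*), and *Gsx1* and *Gsx2* shared 25 of the 60 cells with *Gsx1*. In the telencephalic vesicle (6803 cells) *Gsx2* and *Olig2* shared 600 cells, or 51.5% of 1165 and 28.9% of 2075, *Olig1* and *Olig2* shared 245 (64.6% of 379), and *Gsx1* and *Gsx2* shared 62 of 138. APs with *Gsx2* thus held *Olig2* about as often as not at their own depth. In thinned cells fewer did, 105 of 342 APs with *Gsx2* in the septal explants and 88 of 377 in the vesicle.

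These numbers exceeded the product of the shares. The ratio of observed to expected was 2.92 [1.89 to 4.31] for *Gsx1* and *Gsx2*, 1.76 [1.54 to 1.998] for *Gsx2* and *Olig2* and 2.14 [1.94 to 2.37] for *Olig1* and *Olig2* in the septal explants, and 2.62 [2.01 to 3.36], 1.69 [1.56 to 1.83] and 2.12 [1.86 to 2.40] in the telencephalic vesicle. Cells of like region and depth share genes for that reason alone, so that the number was also computed within clusters and 10 groups of depth. The septal ratios were then 1.38 [0.890 to 2.03], 1.09 [0.955 to 1.24] and 1.17 [1.06 to 1.30], and those of the vesicle 1.33 [1.02 to 1.70], 1.15 [1.06 to 1.24] and 1.21 [1.06 to 1.37]. Most of the excess was thus shared with cluster and depth, and an excess beyond counting error was left for *Olig1* and *Olig2* in both libraries and for the other 2 pairs in the vesicle. Not all of it held up at equal depth or within a class. In thinned cells of the vesicle, *Gsx1* and *Gsx2* shared 3 cells where 2.36 were expected from the shares over all APs, a ratio of 1.27 [0.262 to 3.71]. Within the subpallial-like APs alone, the intervals of all 6 pairs within cluster and depth group included 1 in both libraries, with *Olig1* and *Olig2* at 1.13 [0.948 to 1.33] and 1.05 [0.885 to 1.24].

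**Figure D4:**
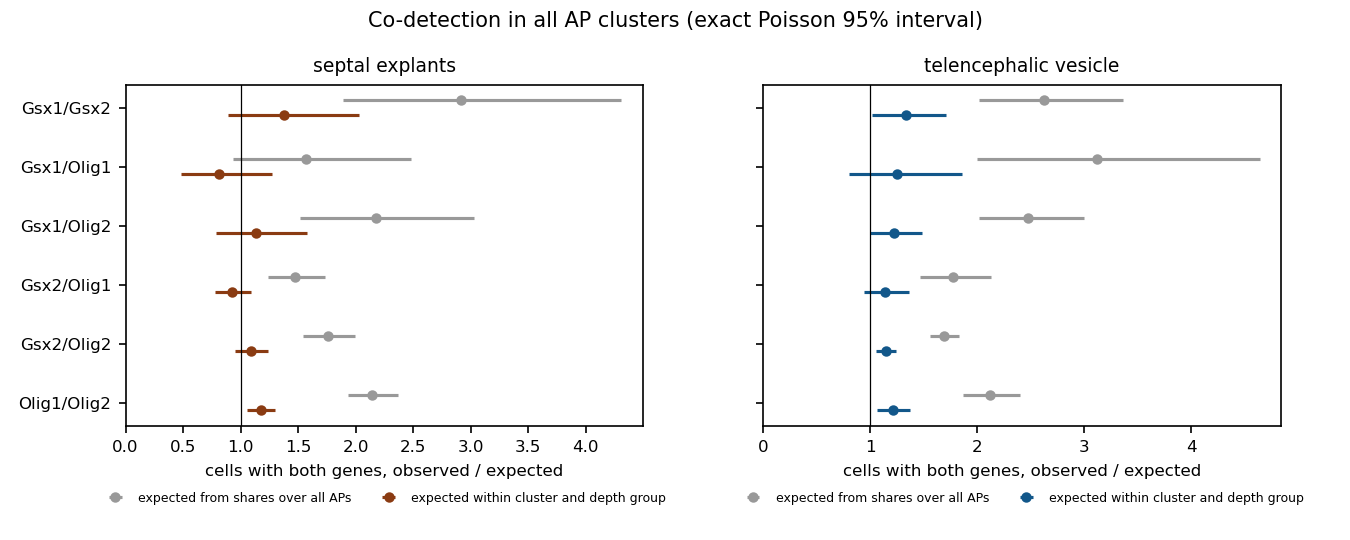
Cells holding both genes of a pair over the number expected (x axis, ratio) for the 6 pairs, over all AP clusters of the septal explants (left) and the telencephalic vesicle (right). Grey points use shares over all APs and coloured points shares within cluster and depth group, bars are exact Poisson 95% intervals, and the line marks a ratio of 1. The grey ratios lie between 1.47 and 3.12 and the coloured ones between 0.808 and 1.38.

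Depth stood out among these cells in the telencephalic vesicle. Its APs had a median of 11080 UMIs, but the cells with *Gsx1* and *Gsx2* had 49575, those with *Gsx1* and *Olig1* 71574, and those with *Gsx2* and *Olig2* 17436. All 4 genes were found in 16 of its APs, at a median of 79568 UMIs, and in 6 APs of the septal explants, at 31927. Such depth also goes with doublets that Scrublet did not mark, and their part in the result was not tested. Within the subpallial-like APs alone, *Gsx2* and *Olig2* shared 67 septal cells where 66.2 were expected and 454 cells of the vesicle where 386.5 were expected, the latter 1.09 times [0.991 to 1.19] the number expected within cluster and depth group.

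Partners of known role were read in the same way, within cluster and depth group. *Gsx2* shared cells with *Dlx2* 1.74 times [1.52 to 1.97] as often as calculated in septal APs and 1.51 times [1.39 to 1.64] in the vesicle, and *Gsx1* with *Dlx2* 1.91 times [1.28 to 2.74] and 1.84 times [1.49 to 2.25]. *Gsx2* and *Dbx1*, a homeodomain gene of VP and septal progenitors, met less often than expected, 0.566 times [0.363 to 0.842] and 0.682 times [0.511 to 0.892], and so did *Gsx2* and *Nkx6-2*, 0.375 times [0.102 to 0.960] and 0.740 times [0.604 to 0.899]. *Gsx2* and *Nkx2-1* met 0.725 times [0.527 to 0.973] as often in septal APs and 0.939 times [0.843 to 1.04] in the vesicle. *Gsx2* thus went with *Dlx2* and away from *Dbx1* and *Nkx6-2* in both libraries, with clusters and depth groups held fixed. All AP clusters were pooled, among them those without a regional likeness, so that region was not held fixed. The septal ratio for *Nkx6-2* rests on few shared cells, and its interval ends close to 1.

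*Olig* partners differed from these. *Olig2* and *Nkx2-1* shared 268 septal APs, 1.24 times [1.096 to 1.40] the number expected within cluster and depth group, and 1132 APs of the vesicle, 1.08 times [1.02 to 1.15]. *Olig1* and *Dbx1* shared 112 septal APs, 1.34 times [1.11 to 1.62], and 32 in the vesicle, 1.27 times [0.866 to 1.79]. The septal ratios of *Dbx1* were thus on opposite sides of 1 for *Olig1* and *Gsx2*, and their intervals do not overlap. *Pdgfra*, a receptor of oligodendrocyte precursors, lies 74.4 kb after *Gsx2*. It shared APs with *Gsx2* 1.83 times [1.05 to 2.97] as often as calculated in the septal explants and 1.44 times [1.20 to 1.71] in the vesicle. With *Olig1* it did so 0.730 times [0.268 to 1.59] and 1.61 times [1.21 to 2.12] as often. *Sox10*, which marks committed oligodendrocyte cells, was found in 3 septal APs and 65 APs of the vesicle, and *Olig3* in 0 and 5.

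Cells holding different members were then set against each other over all genes, in APs thinned to equal depth, and a gene with at least 50 UMIs was counted as past the fold at a 2-fold difference of CPM. All AP classes were pooled, so that region was not held fixed. In these comparisons a gene was taken as held from the thinned counts. A cell without a gene can thus hold it at its own depth, where 499 septal APs and 1165 vesicle APs held *Gsx2*. Some genes of the lists, such as *Emx1*, *Dlx2* and *Nkx2-1*, also served to name clusters. The 342 septal APs with *Gsx2* were compared with 2863 without it over 11101 genes, of which 0.504% were higher and 4.34% lower, and the 377 vesicle APs with *Gsx2* with 6322 without it over 12244 genes, of which 0.907% were higher and 5.77% lower. Of 12 genes of the subpallial neurogenic cascade, 8 were measured in the septal explants, of which 3 were higher and 2 lower, with a median fold of 1.425 against 0.982 over all genes. *Dlx1* was 16.4-fold [11.6 to 23.5] higher, *Dlx2* 9.04-fold [7.65 to 10.7] and *Isl1*, a gene of striatal neurons, 2.55-fold [1.61 to 3.93], whereas *Sp8* was at 0.498 times [0.407 to 0.604] and *Gad2* at 0.485 times [0.129 to 1.30] from 4 UMIs. In the vesicle 7 were measured, of which 2 were higher, *Dlx2* 3.32-fold [2.66 to 4.10] and *Dlx1* 2.93-fold [2.03 to 4.14], and 2 lower, *Sp8* at 0.0554 times [0.00670 to 0.201] from 2 UMIs and *Gad2* at 0.280 times [0.00696 to 1.62] from 1 UMI. *Dlx1* and *Dlx2* were thus higher in APs with *Gsx2* in both libraries.

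Pallial genes gave the opposite picture. Of 12, all were measured, 0 were higher and 6 lower in either library, with medians of 0.534 in the septal explants and 0.566 in the vesicle, the latter against 0.977 over all genes. In septal APs with *Gsx2*, the proneural genes *Neurog2* and *Neurog1* were 6.498-fold [4.61 to 9.47] and 4.59-fold [2.47 to 9.64] lower, and the dorsal patterning genes *Emx1* and *Dmrta2* 4.01-fold and 3.72-fold lower. In the vesicle *Emx1* was at 0.0930 times [0.0191 to 0.273] from 3 UMIs, *Dmrta2* was 5.54-fold and *Tfap2c* 3.67-fold lower, and *Eomes* was at 0.300 times [0.0358 to 1.11] from 2 UMIs. *Pax6*, present on both sides of the PSB, was not past the fold in either. *Dbx1* and *Tfap2c* in the septal explants, and *Neurog2* and *Emx2* in the vesicle, complete the counts.

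The other lists moved little. Of the Hedgehog and ventral list, 0 of 7 measured genes were higher and 1 lower in the septal explants (*Gli1*, at 0.314 times [0.0634 to 0.951] from 3 UMIs), and 0 of 11 and 1 in the vesicle (*Shh*, 2.21-fold lower). Of 10 Notch genes, the septal explants had *Dll1*, a Notch ligand, 2.05-fold higher and *Hes1*, a Notch effector, 2.11-fold lower, and the vesicle had 0 past the fold. *Sox8* was the only 1 of 3 measured genes of the oligodendrocyte list past the fold, 2.49-fold [1.27 to 4.61] and 2.80-fold [1.60 to 4.63] higher. Of 8 genes of cell cycle exit and neuronal onset, *Gadd45g* was 2.08-fold higher in the septal explants, and *Dcx* was at 0.264 times [0.0316 to 0.974] from 2 UMIs in the vesicle. The medians of these 4 lists were 0.945, 1.18, 1.18 and 1.14 in the septal explants and 0.908, 0.991, 1.23 and 0.999 in the vesicle.

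APs with *Gsx2* but no *Olig2* were compared with those with *Olig2* but no *Gsx2*. Septal cells, 237 against 518, had 0.567% of 8117 genes higher and 1.42% lower, and cells of the vesicle, 289 against 830, 0.683% of 8201 higher and 1.46% lower. *Nkx2-1* stood out in both, 12.6-fold [8.65 to 19.1] and 6.41-fold [4.58 to 9.24] lower in cells with *Gsx2*. *Pax6* was 2.30-fold [1.95 to 2.70] and 3.29-fold [2.42 to 4.48] higher. *Gsx2* and *Olig2* APs thus differed along *Nkx2-1* and *Pax6* in both libraries.

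By list, the ventral genes had 0 of 6 higher and 2 lower in the septal explants, where *Ptch1*, the Hedgehog receptor and target, was 2.64-fold lower, and 0 of 8 higher and 3 lower in the vesicle, where *Shh* was 9.75-fold [4.39 to 26.9] and *Nkx6-2* 2.57-fold lower. Of pallial genes, 1 of 11 was higher and 2 lower in the septal explants (*Dbx1* 4.58-fold [1.84 to 14.7] and *Neurog1* 3.20-fold), and 2 of 5 higher and 0 lower in the vesicle (*Emx2* 2.21-fold beside *Pax6*). Of the neurogenic cascade, 2 of 5 were higher in the septal explants, *Dlx2* 8.79-fold and *Dlx1* 8.60-fold, and 0 of 4 were past the fold in the vesicle, where *Dlx2* was at 1.53 times. Of the Notch genes, 1 of 9 was higher in the septal explants (*Dll1*, 2.49-fold) and 1 of 9 lower in the vesicle (*Hes5*, 2.26-fold). Of cell cycle exit genes, *Gadd45g* was 3.08-fold higher among 7 in the septal explants and *Cdkn1c* 2.41-fold lower among 7 in the vesicle, and *Sox9*, the only oligodendrocyte-list gene measured, was at 1.27 and 0.944 times. The list medians were 1.675 (cascade), 1.26 (pallial), 0.820 (ventral), 1.05 (Notch) and 1.03 (exit) in the septal explants, against 0.986 over all genes, and 1.345, 1.81, 0.736, 0.778 and 0.729 in the vesicle, against 0.993. *Olig1* itself was 2.42-fold lower in the septal cells with *Gsx2*.

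**Figure D5:**
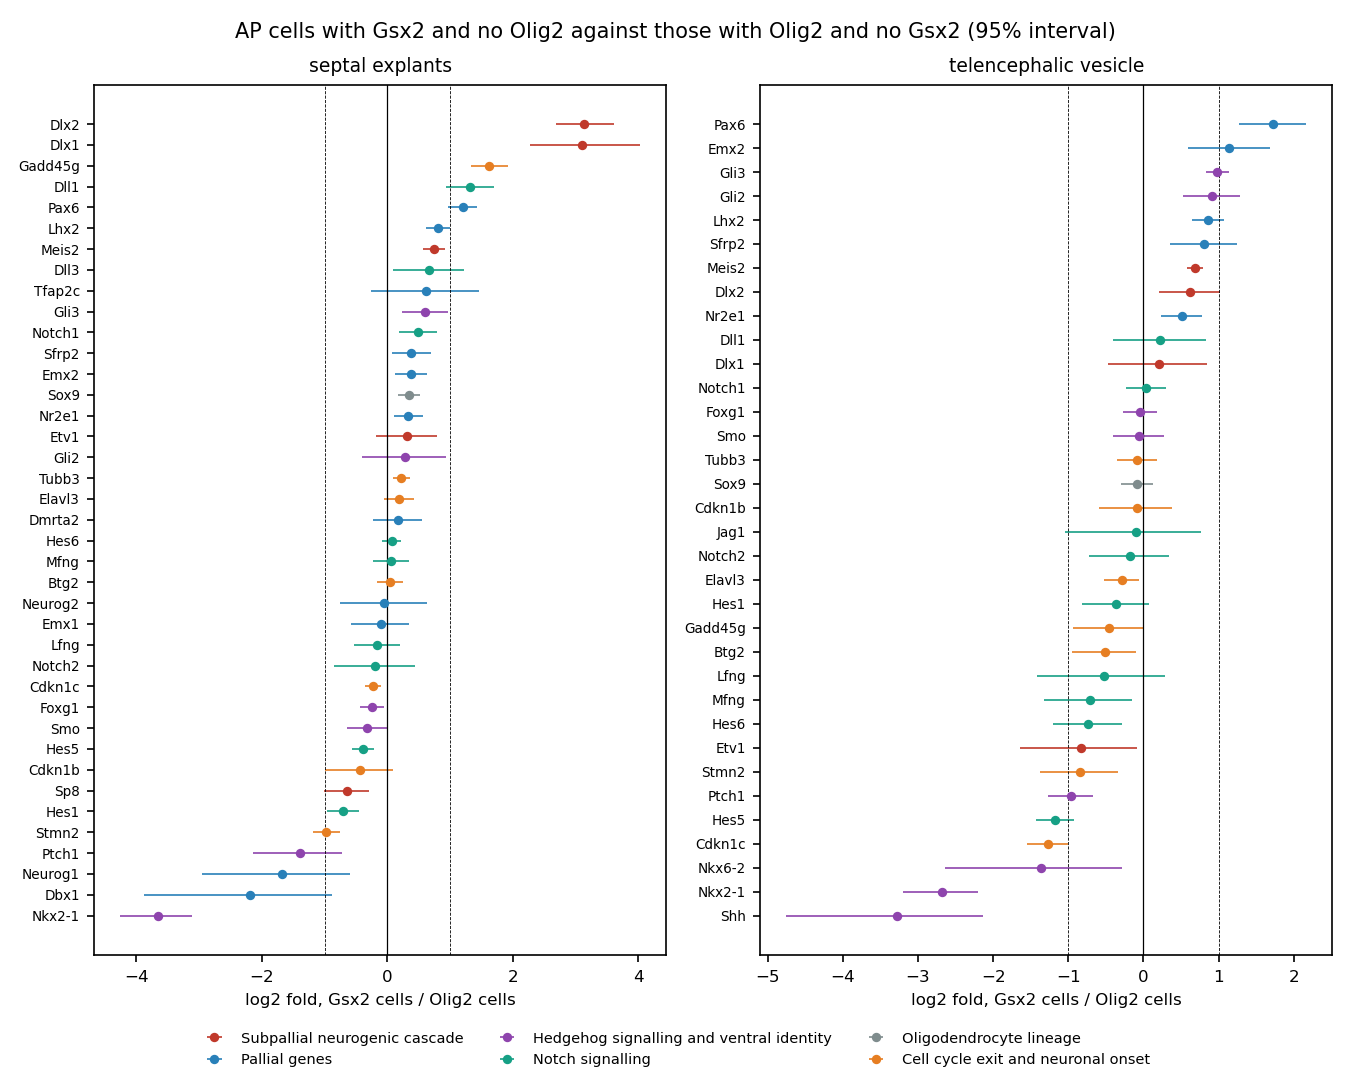
Ratio of CPM between APs with *Gsx2* and no *Olig2* and APs with *Olig2* and no *Gsx2* (log2, x axis) for the reported genes of the 6 lists, in the septal explants (left) and the telencephalic vesicle (right). Points are coloured by list, bars are exact 95% counting intervals, and dashed lines mark a 2-fold difference. *Nkx2-1* lies far on the *Olig2* side in both, 12.6-fold and 6.41-fold, and *Pax6* on the *Gsx2* side.

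APs with *Gsx1* but no *Gsx2* were few, 20 in the septal explants against 329 with *Gsx2* but no *Gsx1*, and 39 in the vesicle against 374. Genes of low level pass the fold by counting noise in such small sets, and 2.07% of 5800 genes were higher and 8.52% lower in the septal explants, and 3.16% of 4972 higher and 5.73% lower in the vesicle. In the vesicle, the *Gsx1* cells had 4 of 7 genes of cell cycle exit and neuronal onset higher and 1 lower, with *Cdkn1c* (a cyclin-dependent kinase inhibitor) 7.099-fold [5.79 to 8.69], *Gadd45g* 5.87-fold [4.03 to 8.49], *Stmn2* 3.13-fold [1.62 to 5.70] and *Btg2* 2.14-fold [1.23 to 3.56] higher. *Cdkn1b*, another cyclin-dependent kinase inhibitor, was at 0.457 times [0.0917 to 1.40] from 3 UMIs. Of 7 Notch genes, 3 were higher, *Hes6* 4.59-fold, *Dll1* 3.56-fold and *Mfng* 2.62-fold. *Dlx1* (3.996-fold) and *Dlx2* (3.00-fold) were higher and *Meis2* 2.67-fold lower among 3 genes of the cascade, *Nkx2-1* (2.72-fold) and *Ptch1* (2.07-fold) higher among 6 ventral genes, and *Pax6* was at 0.0820 times [0.00206 to 0.466] from 1 UMI among 5 pallial genes, with *Sox9* at 0.864 times. The list medians were 2.14 (exit), 1.42 (Notch), 3.00 (cascade), 1.18 (ventral) and 0.629 (pallial), against 0.989 over all genes.

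The septal set of 20 cells gave *Cdkn1c* 3.22-fold [2.74 to 3.75] and *Stmn2* 2.79-fold [2.05 to 3.75] higher of 7 genes of cell cycle exit and neuronal onset, and *Dll3*, 2.89-fold [1.31 to 5.70] from 10 UMIs, of 8 Notch genes. Of 5 cascade genes 1 was lower, *Dlx1* at 0.177 times [0.00443 to 1.01] from 1 UMI, of 4 ventral genes *Nkx2-1* was at 2.06 times [0.851 to 4.30] and *Gli3* at 0.360 times [0.0734 to 1.08] from 3 UMIs, of 7 pallial genes 0 were past the fold, and *Sox9* was at 0.681 times. The medians were 1.75, 1.07, 0.767, 0.808 and 0.924 in the same order of lists, against 0.961. *Cdkn1c* and *Stmn2* were thus higher in APs with *Gsx1* than in those with *Gsx2* in both libraries, as a count without replicates.

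The genes most like each member over clusters were sought by Pearson's r of log2(CPM + 1), over 30 septal clusters and 27 named clusters of the vesicle. Clusters of a library share its depth and were built from many of the same genes, and r is given as a description. *Gsx1* was most like *Dlx1* (r = 0.828), *Dlx2* (0.769), *Dleu7*, *Ckb* and *Rgs8* in the septal explants, and *Boll* (0.826), *Tmem219*, *Frmpd1* and *Depdc7* in the vesicle. *Gsx2* was most like *Dlx2* (0.832), *Vwc2*, *Prok2*, *Nkx2-3* and *Cdh22* in the former, and *Acsbg1* (0.863), *Lmo1*, *Pantr1*, *Sox1ot* and *Gm28175* in the latter. *Olig1* was most like *Nkx2-3* (0.907), *Olig2* (0.889), *Ano1*, *Ntn1* and *Adgrv1*, and *4933439N14Rik* (0.811), *Gm40123*, *Metrn*, *Fzd5* and *H2-Q7*. *Olig2* was most like *Nkx2-3* (0.931), *Olig1* (0.889), *Fgf15*, *Cdh22* and *Sox1*, and *Lmo1* (0.882), *Gm40123*, *Vax1* and *Tfdp2*. Among the members themselves, r was 0.889 and 0.783 for *Olig1* with *Olig2*, 0.628 and 0.502 for *Gsx1* with *Gsx2*, and 0.657 and 0.763 for *Gsx2* with *Olig2*, in the septal explants and the vesicle in turn.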

How the data were processed

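The authors deposited raw UMI counts per gene and cell barcode for both libraries, without normalisation. Per the labels, the septal library was made with kit version 2 and Cell Ranger 2.1.1 on mm10 with YFP and tdTomato added, from about 10000 cells, and the telencephalic vesicle library with kit version 3.1 and Cell Ranger 7.1.0 from 20000 cells. Whether introns were counted, the default of the later version, is not given in the sources used here. The septal explants held 5827 barcodes, 28001 features and 83103280 UMIs, and the vesicle 14283 barcodes, 32286 features and 194821794 UMIs. Cells outside 3 MAD of the median mitochondrial share (383 and 1812) and doublets called by Scrublet (60 and 764, 1.10% and 6.13% of those left, against expected rates of 4.66% and 11.4%) were removed.

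From the deposited counts, cells were scaled to 10000 UMIs, and 2000 variable genes without the 4 members, reporters, sex-linked genes and 97 cell cycle genes gave 30 principal components, 15 neighbours and Leiden clusters at a resolution of 1.5 (scanpy 1.11.5, scipy 1.17.1, igraph 0.11.9, numpy 2.4.6, scikit-learn 1.9.0, pandas 2.3.3, anndata 0.12.19 and matplotlib 3.10.9 under Python 3.11.15). A cluster was named from at least 3 markers, each in at least 5% of its cells and at 1.5 times the mean CPM of other clusters, with the leading genes not against it, and a regional name needed a mean z score of 0.5. This rule was revised 2 times after clusters were seen and before values of the members were read, and the lateral and medial ganglionic eminence lists were merged to subpallial. In the vesicle, 3 shallow clusters of 978 cells (median 1070 UMIs) stayed unnamed. A septal cluster of 146 cells without regional likeness was led by neuronal genes, 1 of 194 cells in the vesicle by haemoglobin genes, 1 Cajal-Retzius-like cluster in each library by *Foxj1*, *Mcidas* and *Gmnc*, genes of multiciliated cells, and the septal mesenchyme-like cluster also by macrophage genes.

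Each group has 1 library, so no test was run. Poisson, Clopper-Pearson and conditional intervals are exact, at 95%, and cover counting error only, and 3 counts give the limit beside a share of 0. Thinned cells had 8000 UMIs (septal, 511 shallower cells left out) or 3500 UMIs (vesicle, 1144 left out). The fold computation was tested on simulated data. The genes named are the members, up to 4 genes a list with the largest fold, and the 5 most like each member. A few genes, some of them in the cascade list, are not reported here and were left out of its counts and medians. Genes that complete a count of a list, *Dlx2*, *Sox9* and *Pax6* where they were not past the fold, and genes that describe single clusters were named in addition, after their values were seen. The members, lists and comparisons were chosen with earlier results of these data known, so that agreement with a known role is no independent support. Gene spans are from GENCODE M21 on mm10.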

Additional observations from a re-analysis of the deposited data

How the results depend on the processing

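No paired analysis was possible because each group has 1 library. No fold of subpallial-like over pallial-like APs turned its direction under the alternatives run. Nor did co-detection ratios within cluster and depth group, at 2 UMIs or more, or in thinned cells, for the pairs run again. These were *Gsx1* with *Gsx2*, *Gsx2* with *Olig2* and *Olig1* with *Olig2*. Ratios of other pairs did turn, with intervals that include 1. Septal *Gsx1* with *Olig1* went from 1.57 to 0.808 [0.479 to 1.28] within cluster and depth group and 0.469 [0.0568 to 1.70] in thinned cells. Septal *Gsx2* with *Olig1* went from 1.47 to 0.927 [0.779 to 1.09] within cluster and depth group. The other values were not checked for direction, and contrasts between single clusters were not run again. Sizes moved as follows, where the cause was not tested. The folds of subpallial-like over pallial-like APs in the septal explants were, with doublets kept, 78.4 for *Gsx1*, 18.6 for *Gsx2* and 26.8 for *Olig2*, with another random seed 10.3 for *Gsx2* and 21.3 for *Olig2*, at a Leiden resolution of 2.5 6.05 for *Gsx2*, and with classes from marker UMIs in each cell 4.83, 2.56, 4.36 and 4.48 for *Gsx1*, *Gsx2*, *Olig1* and *Olig2*. In the telencephalic vesicle they were 7.58 for *Gsx2* at a resolution of 2.5, 21.8 for *Olig2* with doublets kept, and 3.19, 5.55 and 10.2 for *Gsx2*, *Olig1* and *Olig2* with marker UMIs. Of 56 such folds, 41 stayed within counting error of the value given, as did 17 of 56 levels in subpallial-like APs. Septal levels that moved by more than 1.5 times were *Gsx1*, from 6.81 CPM to 4.11 with all barcodes, 4.53 with marker UMIs and 3.38 with cell cycle genes kept, and *Gsx2*, from 41.5 CPM to 66.0 with another random seed and 64.2 with doublets kept. Co-detection ratios against the product of the shares over all APs were 2.92 (*Gsx1* and *Gsx2*), 1.76 (*Gsx2* and *Olig2*) and 2.14 (*Olig1* and *Olig2*) in the septal explants and 2.62, 1.69 and 2.12 in the vesicle, and against the number within cluster and depth group 1.38, 1.09 and 1.17, and 1.33, 1.15 and 1.21. Against the product of the shares again, at least 2 UMIs of each gene gave 5.84 for *Gsx1* and *Gsx2* and 3.59 for *Olig1* and *Olig2* in the septal explants, and 3.92, 2.37 and 3.87 in the vesicle, and thinned cells gave 1.27 for *Gsx1* and *Gsx2* and 1.84 for *Olig1* and *Olig2* in the vesicle. The highest bin along differentiation, given by its centre in percent of cells, moved at a resolution of 0.8 to 85 for septal *Gsx1*, 85 for septal *Gsx2*, 45 for septal *Olig1*, 45 for septal *Olig2* and 25 for *Olig2* of the vesicle, with doublets kept to 75 for septal *Gsx2* and 25 for *Olig2* of the vesicle, and with 5 bins to 70 for the latter. Genes past the fold were 538 for *Gsx2* against none, 161 for *Gsx2* against *Olig2* and 614 for *Gsx1* against *Gsx2* in the septal explants, and 818, 176 and 442 in the vesicle. A fold of 1.5 gave 1415, 690 and 1674, and 1998, 752 and 1313, a minimum of 200 UMIs gave 152, 30 and 52, and 252, 41 and 31, and cells at their own depth gave 387 for *Gsx2* against *Olig2* in the vesicle. Depth limits the shares of cells, which on thinning went from 3.80% to 1.21% for *Gsx1*, 25.2% to 8.05% for *Gsx2* and 6.91% to 2.04% for *Olig1* in subpallial-like APs of the vesicle, and the spread between embryos cannot be seen.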
